A study of Mus musculus with 6 samples.

Results

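A set of 10 immediate early transcription factor genes was followed across 3 tissues of the mouse hind limb: Fos, Fosb, Fosl2, Jun, Junb, Jund, Egr1, Egr2, Egr3 and Atf3. They were found by gene symbol in the authors' tables, joined to the count tables by Ensembl identifier, and make up 10 of the 20672 genes in any count table. All 10 stand in the count tables of all 3 tissues, which share 16964 genes, and all 10 passed the filter on low counts, as did 15856 genes in all. The series holds RNA-seq of 6 libraries from female mice, 2 from each tissue. The tissues are the infrapatellar fat pad (adipose tissue of the knee joint that lies deep to the patellar ligament), the Achilles tendon and the rectus femoris, a thigh muscle. Letrozole, an inhibitor of the oestrogen-making enzyme aromatase, is named in both fat pad titles but not in the 4 others. No label gives strain, age, dose or an untreated control, so tissue and drug cannot be told apart, and every difference below is between tissues as sampled.

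Fos and Jun proteins pair through leucine zippers to form AP-1, which binds promoters and enhancers, while Egr proteins are zinc finger factors that bind GC-rich sites. Genes of this kind are switched on within minutes of a stimulus by factors already present in the cell, chiefly serum response factor with its partners and the CREB family, and their transcripts decay quickly. Handling, stretch and tissue dissociation are among the stimuli known to raise them, and Jund is known as the Jun gene with the steadiest expression.

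The tissue of each library was taken from the one label that names 3 tissues, because the other labels that give an origin read fat pad throughout. Marker sums in CPM (each library's counts scaled to a common total) follow that grouping. The 10 adipocyte markers summed to 82404 and 86716 CPM in the fat pad libraries, against 6190 and 1387 CPM in tendon and 996 and 1457 CPM in muscle. Cfd alone gave 56334 and 61994 CPM of the fat pad sums. In edgeR 9 of the 10 were called higher fat pad over muscle, and 6 fat pad over tendon. Lep had 22.3 and 11.7 CPM in the fat pad but 86.4 and 7.27 CPM in tendon. Plin4 had 284 and 178 CPM in the fat pad, 853 and 252 CPM in tendon, and 448 and 351 CPM in muscle. Plin1 had 385 and 455 CPM in the fat pad, and 403 and 25.1 CPM in tendon. The 10 tendon cell markers summed to 1157 and 700 CPM in the fat pad, 43956 and 34502 CPM in tendon, and 2562 and 1881 CPM in muscle. The 12 muscle fibre markers summed to 227 and 213 CPM in the fat pad, 49755 and 86714 CPM in tendon, and 205660 and 198071 CPM in muscle. The tendon libraries thus held muscle transcripts, with the larger sum in library 2. In tendon, Myh2 (8122 and 3687 CPM), Myh7 (6551 and 2986 CPM) and Tnnt1 (1101 and 579 CPM) were higher in library 1. The other muscle markers were higher in library 2, with Myh4 at 783 and 22606.5 CPM. Fat pad library 1 held more red cell and marrow transcripts than library 2. The 6 erythroid markers summed to 52987 and 16287 CPM in the fat pad, 384 and 118 CPM in tendon, and 306 and 307 CPM in muscle. The 8 neutrophil and marrow markers summed to 2015 and 266 CPM in the fat pad, 1.19 and 1.19 CPM in tendon, and 4.87 and 4.32 CPM in muscle. Of these, Elane, Ltf, Mpo, Ngp, Retnlg and S100a9 were each at 0 in some library. The 8 macrophage markers went the other way in the fat pad, with 1592 and 2395 CPM. The 6 synovial lining markers summed to 18079 and 20204 CPM there. Total counts lay between 83132413 and 106319037 in the fat pad, between 59042675 and 62063826 in tendon, and between 56216295 and 58544836 in muscle. The labels do not say whether libraries came from separate animals, so the tests measure the spread between libraries, which may be technical. Codes in the titles differ by tissue, so whatever they stand for cannot be told apart from tissue. The fat pad counts list 20516 genes, and those of tendon and of muscle 17120.

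Promoters are shown for Fosb and Fos, whose fat pad levels lay below those of muscle, and for Junb, where they lay above, with Egr2 beside them for its serum response element letters. Each is 250 bases before to 50 after a RefSeq start site on build GRCm38.p6, in the direction of transcription. Capitals mark searched motifs: TGACG, the core of the cAMP response element, and GCGGGGGCG, a site that Egr proteins bind. They also mark TATAAA, the letters of the TATA box, and the CArG box, the core of the serum response element.
Fos, chr12:85473640-85473939, plus strand: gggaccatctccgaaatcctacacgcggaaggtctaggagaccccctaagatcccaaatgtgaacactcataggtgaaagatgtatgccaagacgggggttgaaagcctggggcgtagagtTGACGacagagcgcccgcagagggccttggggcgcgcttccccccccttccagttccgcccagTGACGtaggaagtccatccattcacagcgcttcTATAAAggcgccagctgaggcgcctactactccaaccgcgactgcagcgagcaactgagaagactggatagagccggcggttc
Fosb, chr7:19309996-19310295, minus strand: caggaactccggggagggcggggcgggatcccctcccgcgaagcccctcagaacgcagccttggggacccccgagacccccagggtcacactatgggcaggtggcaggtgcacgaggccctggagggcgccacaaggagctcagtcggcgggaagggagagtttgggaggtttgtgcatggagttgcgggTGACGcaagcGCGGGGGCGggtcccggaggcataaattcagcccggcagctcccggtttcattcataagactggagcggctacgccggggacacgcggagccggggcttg
Junb, chr8:84978699-84978998, minus strand: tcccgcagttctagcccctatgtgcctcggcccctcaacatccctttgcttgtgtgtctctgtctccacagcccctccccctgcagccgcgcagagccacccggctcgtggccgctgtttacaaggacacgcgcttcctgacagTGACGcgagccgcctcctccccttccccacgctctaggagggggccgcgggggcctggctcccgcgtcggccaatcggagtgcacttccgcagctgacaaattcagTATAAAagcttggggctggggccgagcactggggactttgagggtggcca
Egr2, chr10:67537619-67537918, plus strand: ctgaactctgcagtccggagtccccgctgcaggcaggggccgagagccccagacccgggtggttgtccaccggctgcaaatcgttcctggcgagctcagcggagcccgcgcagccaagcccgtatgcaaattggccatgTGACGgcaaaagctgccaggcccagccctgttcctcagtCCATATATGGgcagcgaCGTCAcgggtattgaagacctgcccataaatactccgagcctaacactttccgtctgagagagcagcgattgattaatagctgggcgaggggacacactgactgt

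Promoter windows were found for 8 of the 10 genes, with 5 windows for Egr2 and 1 for each of the others, and both strands were searched. The letters TGACG stood in windows of 5 of these 8 genes (Fos, Fosb, Junb, Atf3, Egr2), and in 20.8% of 32851 promoters of the same length. A gene was counted if any of its windows held a motif, whereas the shares over all promoters count each window singly. Within these windows the CArG box was found only for Egr2, and in 1.63% of all promoters. Bases more than 250 before the start site were not searched, and Egr1 and Egr3 had no window. Fosb and Fosl2 held GCGGGGGCG, as did 2.91% of all promoters, and Fos and Junb held TATAAA, as did 13.6%. None of the 8 held the full AP-1 site TGACTCA (5.2% of all promoters), the full element TGACGTCA (1.79%), which contains TGACG, or the Egr site GCGTGGGCG (0.612%). Junb and Fos, which differed in opposite directions between fat pad and muscle, both held TGACG and TATAAA in these windows. The place of TATAAA differed: bases -33 to -28 from the start site in Fos, and 0 to 5, at the start site itself, in Junb.

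Against muscle, the fat pad had lower levels of Fosb, Egr3, Fosl2, Fos, Atf3 and Jun and higher levels of Jund and Junb. Against tendon it had lower levels of Egr3, Fosb, Fosl2, Atf3 and Jun and a higher level of Junb. Tendon and muscle differed in Jund, which was higher in tendon. A gene was called where edgeR's quasi-likelihood test over all 6 libraries gave a Benjamini-Hochberg adjusted p under 0.05. Fat pad over muscle, 8 of 10 members were called (2 higher and 6 lower), where 59.4% of all tested genes were called (29.8% higher and 29.6% lower). Fat pad over tendon, 6 of 10 were called (1 higher and 5 lower), where 58.5% of all genes were (27.2% higher and 31.4% lower). Tendon over muscle, 1 of 10 was called, where 26.0% of all genes were (13.3% higher and 12.7% lower). In that last comparison edgeR called 0 members lower, 1 member (Fos) was lower at an unadjusted p under 0.05, and DESeq2 and limma on TPM called 0 lower. Most genes of any kind were thus called in the fat pad comparisons. The members' median log2 fold change was -1.26 fat pad over muscle, -0.85 fat pad over tendon and 0.17 tendon over muscle, beside 0.14, -0.01 and 0.10 over all genes. The 2 fat pad comparisons share the fat pad libraries, so their values are given side by side and their likeness is no separate result. In bulk tissue, fewer cells of a type and less RNA per cell cannot be told apart.

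**Figure D1:**
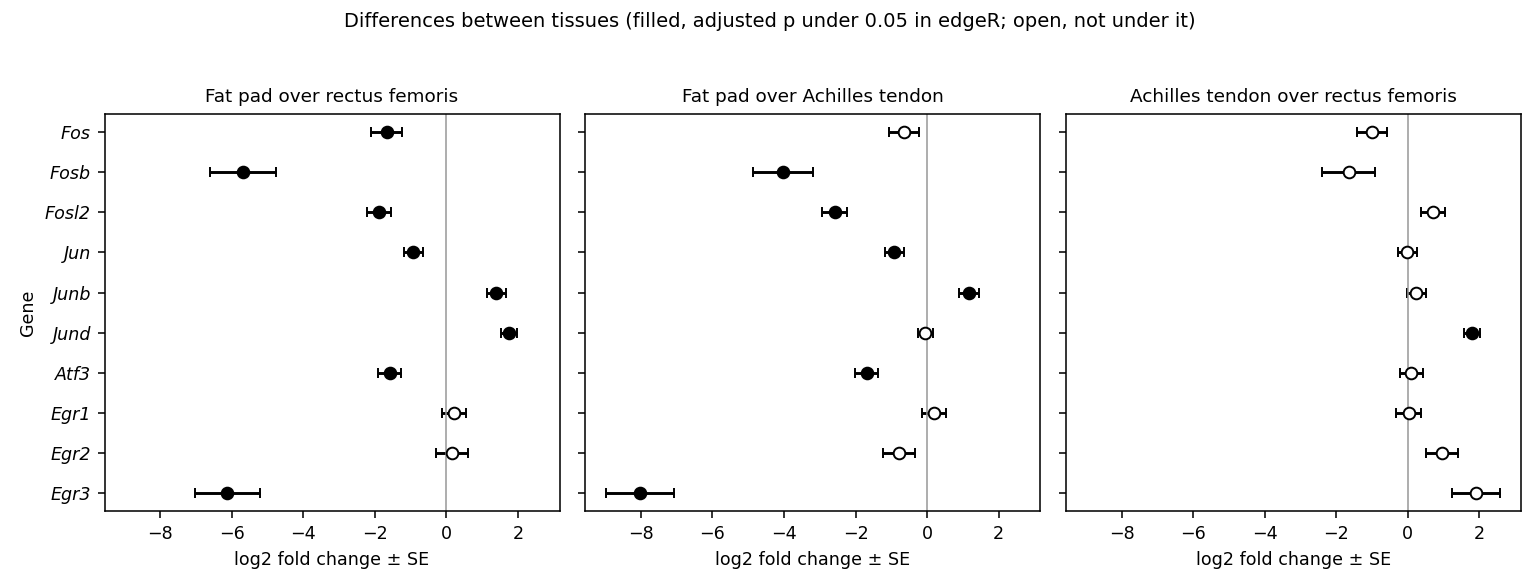
Log2 fold change with its standard error for each of the 10 genes (rows) in the 3 comparisons (panels), from edgeR on read counts. Filled points had an adjusted p under 0.05. Egr3 and Fosb lie farthest to the left in both fat pad panels, Junb lies to the right in both, and only Jund is filled in the tendon over muscle panel.

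Fos, the partner in the classic AP-1 dimer, had 29.9 and 29.9 CPM in the fat pad, 27.1 and 67.0 CPM in tendon, and 116 and 74.2 CPM in muscle; these and all later CPM of members are scaled by the trimmed mean of M-values (TMM). The muscle libraries lay above all others, the fat pad libraries were nearly equal, and the tendon libraries lay on either side of the fat pad. Fos fell by 1.67 ± 0.43 (SE) on the log2 scale fat pad over muscle (edgeR adjusted p = 0.0134), which is 3.18-fold lower. The call did not survive leaving out fat pad library 1 (adjusted p = 0.0772), fat pad library 2 (0.075) or muscle library 1 (0.0724, log2 fold change -1.32) in edgeR. Fat pad over tendon, the log2 fold change was -0.65 ± 0.42 (edgeR adjusted p = 0.216), and -1.12 without tendon library 1. It passed in limma on log2(TPM + 1) (-1.17, adjusted p = 0.0355), where the median over all genes was -0.94. In that setting 57.3% of all genes were called lower. Tendon over muscle, the log2 fold change of Fos was -1.01 ± 0.42 (edgeR adjusted p = 0.116). The groups of the last pair did not overlap. The tendon value rested on library 2: without it, Fos was 1.80 lower on the log2 scale in tendon than in muscle (edgeR adjusted p = 0.00918).

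Fosb, a close relative of Fos whose short splice form accumulates after repeated stimulation, had the widest range of the Fos genes. It had 0.808 and 0.205 CPM in the fat pad, from 73 and 23 counts, 3.90 and 12.4 CPM in tendon, and 35.4 and 16.1 CPM in muscle. The 3 tissues did not overlap, with the fat pad lowest and muscle highest. Its log2 fold change was -5.68 ± 0.91 fat pad over muscle (edgeR adjusted p = 0.00167), or 51.4-fold lower, and -4.03 ± 0.85 fat pad over tendon (adjusted p = 0.00592), or 16.3-fold lower. Both calls held in the 15 alternatives run, with log2 values from -6.93 to -1.96 and from -5.25 to -1.87. The smallest sizes came from the TPM columns with a pseudocount, which understates changes of low genes. Tendon over muscle, the value was -1.65 ± 0.75 (edgeR adjusted p = 0.143).

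Fosl2, a Fos family protein without a strong activation domain, had 6.56 and 9.93 CPM in the fat pad, 59.6 and 39.1 CPM in tendon, and 23.5 and 37.2 CPM in muscle. Here tendon was highest, with no overlap between tissues, while muscle held the top level of Fos and Fosb. The log2 fold change of Fosl2 was -1.88 ± 0.34 fat pad over muscle (edgeR adjusted p = 0.00308) and -2.58 ± 0.35 fat pad over tendon (adjusted p = 0.000847). Tendon over muscle it differed by 0.70 ± 0.33 without passing the test (edgeR adjusted p = 0.16), and passed with total counts (1.43, adjusted p = 0.023) and in limma on log2(TPM + 1) (0.94, adjusted p = 0.0426).

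Jun, the AP-1 subunit that pairs with Fos proteins and with itself, had 49.2 and 78.2 CPM in the fat pad, 122 and 118 CPM in tendon, and 105 and 137 CPM in muscle. The tendon values lay inside the muscle range, and both fat pad libraries lay below. The log2 fold change of Jun was -0.92 ± 0.27 fat pad over muscle (edgeR adjusted p = 0.0222) and -0.91 ± 0.27 fat pad over tendon (adjusted p = 0.0232). Neither call was firm. The first was lost with scaling by total counts (log2 fold change -0.42, edgeR adjusted p = 0.218), without fat pad library 1 (-0.59, adjusted p = 0.112) and without muscle library 2 (-0.72, adjusted p = 0.135). The other was lost without fat pad library 1 (-0.55, edgeR adjusted p = 0.133) and without tendon library 1 (-0.84, adjusted p = 0.0573).

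Junb, which pairs with Fos proteins and in many promoters activates less than Jun, went the other way. It had 63.6 and 49.1 CPM in the fat pad, 19.1 and 31.1 CPM in tendon, and 22.9 and 19.8 CPM in muscle. Both fat pad libraries lay above all others, and the tendon range enclosed the muscle values. Junb rose by 1.4 ± 0.28 on the log2 scale fat pad over muscle (edgeR adjusted p = 0.00433), or 2.64-fold, and by 1.17 ± 0.27 fat pad over tendon (adjusted p = 0.00927), or 2.24-fold. The call against muscle held in the 15 alternatives run, while that against tendon was lost in limma on the TPM columns (log2 fold change 0.02, adjusted p = 0.958). On log2(TPM + 1) the median over all genes fat pad over tendon was -0.94. In the annotation at hand, 7.52% of Junb's exonic bases overlap Prdx2 on the opposite strand, and the strand setting of the counting is not given. Prdx2, a peroxide-removing enzyme, had 271 and 255 CPM of total counts in the fat pad, 122 and 112 CPM in tendon, and 96.7 and 88.4 CPM in muscle, and its part in the Junb difference was not tested.

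Jund, the member of the Jun family that restrains growth in many cells, had 147 and 165 CPM in the fat pad, 139 and 183 CPM in tendon, and 43.0 and 49.7 CPM in muscle. The fat pad values lay inside the tendon range, and both tissues lay clear of muscle. Jund rose by 1.75 ± 0.22 on the log2 scale fat pad over muscle (edgeR adjusted p = 0.00059) and by 1.80 ± 0.22 tendon over muscle (adjusted p = 0.00641), which is 3.36-fold and 3.47-fold. Fat pad over tendon the log2 fold change was -0.05 ± 0.22 (edgeR adjusted p = 0.87). Tendon over muscle, the call was lost without muscle library 1 (log2 fold change 1.70, edgeR adjusted p = 0.0772) or muscle library 2 (1.91, adjusted p = 0.0589), settings in which edgeR called 37 and 14 genes of all higher. In limma on log2(TPM + 1), fat pad over muscle gave 0.38 (adjusted p = 0.171) and fat pad over tendon gave -0.95 (adjusted p = 0.00481). The medians over all genes in that fit were -0.39 and -0.94, so Jund against tendon lay near the median gene. The fat pad level of Jund against the other tissues thus depends on which deposited values are read, as does the median of all genes. The annotation places 52.6% of Jund's exonic bases under a predicted gene on the opposite strand, Gm11175, so its reads may be shared.

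Atf3, a stress-induced factor that pairs with Jun proteins and can repress, had 6.56 and 7.88 CPM in the fat pad, 24.6 and 21.9 CPM in tendon, and 15.1 and 28.3 CPM in muscle. Fat pad libraries were lowest, and tendon lay inside the muscle range. It differed by a log2 fold change of -1.59 ± 0.32 fat pad over muscle (edgeR adjusted p = 0.00494) and -1.69 ± 0.32 fat pad over tendon (adjusted p = 0.00382). Both calls held in the 15 alternatives run.

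**Figure D2:**
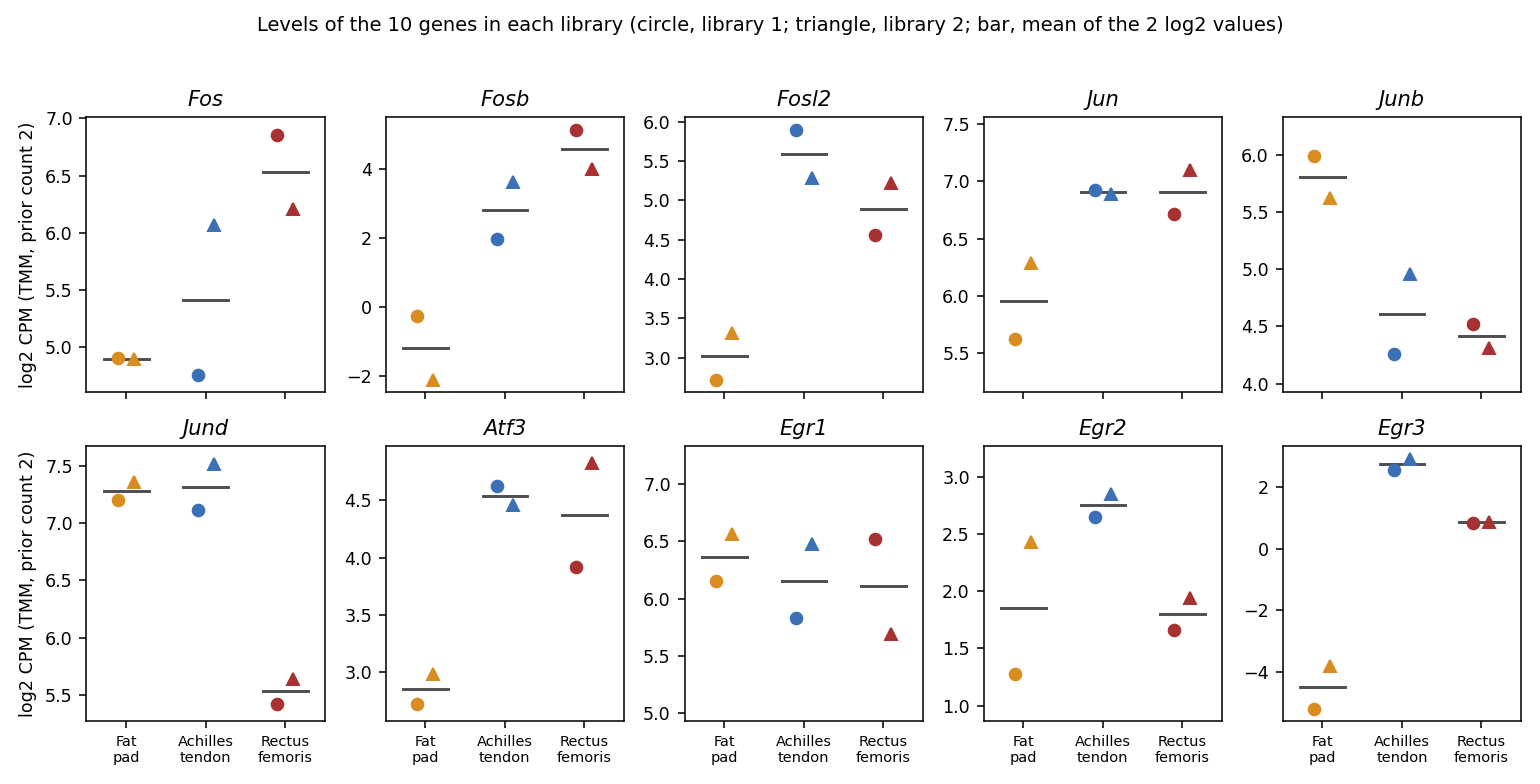
Log2 CPM (TMM scaling, prior count 2) of each gene in each library, with circles for library 1, triangles for library 2 and bars for their mean, each panel on its own axis. The fat pad points lie lowest for Fosb, Fosl2, Jun, Atf3 and Egr3 and highest for Junb, while the 3 tissues overlap for Egr1.

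The Egr genes showed no common pattern. Egr1, the most abundant of the family, had 71.4 and 94.7 CPM in the fat pad, 56.8 and 88.9 CPM in tendon, and 91.6 and 51.7 CPM in muscle. Each tissue's range overlapped the other 2, and no comparison passed the test. The log2 fold change of Egr1 was 0.21 ± 0.34 fat pad over muscle (edgeR adjusted p = 0.615), 0.19 ± 0.34 fat pad over tendon (adjusted p = 0.657) and 0.02 ± 0.34 tendon over muscle (adjusted p = 0.966). An SE of 0.34 leaves room for moderate differences in either direction.

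Egr2, known for its part in peripheral myelination and in fat cell formation, had 2.40 and 5.35 CPM in the fat pad, 6.24 and 7.17 CPM in tendon, and 3.14 and 3.81 CPM in muscle. Both tendon libraries lay above the other 4, and the fat pad libraries enclosed the muscle values. In edgeR with TMM the differences did not pass the test, with log2 fold changes of 0.16 ± 0.44 fat pad over muscle (edgeR adjusted p = 0.775), -0.79 ± 0.44 fat pad over tendon (adjusted p = 0.166) and 0.95 ± 0.45 tendon over muscle (adjusted p = 0.156). Other settings called some of them. Egr2 passed fat pad over tendon without fat pad library 2 in edgeR (-1.49, adjusted p = 0.0266) and in limma on the TPM columns (-1.50 on log2(TPM + 1), adjusted p = 0.0044). Tendon over muscle, it passed with total counts (1.67, edgeR adjusted p = 0.0278), with the 4 tendon and muscle libraries alone (1.00, edgeR adjusted p = 0.0485) and in limma on the TPM columns (1.37 on log2(TPM + 1), adjusted p = 0.0182).

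Egr3, which is needed for muscle spindles, the stretch sensors of muscle, was nearly undetected in the fat pad. It had 0 and 5 counts there, against 452 and 545 counts in tendon and 72 and 81 counts in muscle, although the fat pad libraries were the deepest. A count of 0 in fat pad library 1 allows up to 0.0361 CPM of total counts, and the level in fat pad library 2 was 0.0445 CPM, against 5.82 and 7.49 CPM in tendon and 1.76 and 1.78 CPM in muscle. Its log2 fold change was -6.12 ± 0.90 fat pad over muscle (edgeR adjusted p = 0.00117) and -8.03 ± 0.95 fat pad over tendon (adjusted p = 0.000458). With so few counts the size depends on the library. Without fat pad library 1 it was -5.23 against muscle and -7.11 against tendon. Fat pad library 1, at the 3 counts that a count of 0 allows, was at least 228-fold lower than the tendon mean and at least 36.9-fold lower than the muscle mean, in CPM of total counts. Tendon over muscle, the value was 1.91 ± 0.68 (edgeR adjusted p = 0.0792), with no overlap between the libraries. That difference passed in DESeq2 (1.84, adjusted p = 0.0026), with total counts (2.62, edgeR adjusted p = 0.0242), with the 4 tendon and muscle libraries alone (1.96, edgeR adjusted p = 0.018) and without fat pad library 1 (1.88, edgeR adjusted p = 0.0233) or 2 (1.91, edgeR adjusted p = 0.0236). Egr3 has no row in the fat pad TPM table.

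The number of members whose libraries did not overlap was 8 of 10 fat pad over muscle, 7 fat pad over tendon and 6 tendon over muscle. Over all tested genes these shares were 83.4%, 81.5% and 70.1%, close to the members' own, and with 2 libraries a side such separation is common. The calls depend on the scaling and on which deposited values are read. With total counts in place of TMM, the median log2 fold change of all genes was 0.66 fat pad over muscle, -0.23 fat pad over tendon and 0.83 tendon over muscle. That scaling called 6350 genes higher and 3420 lower fat pad over muscle, where TMM called 4728 and 4698, and 5969 higher and 398 lower tendon over muscle, where TMM called 2110 and 2017. Among the members it called 2 higher and 5 lower fat pad over muscle, without Jun, and 5 higher tendon over muscle. In limma on log2(TPM + 1), the median over all genes was -0.39 fat pad over muscle, -0.94 fat pad over tendon and 0.52 tendon over muscle. It called 3028 genes higher and 5767 lower fat pad over muscle, 1605 and 7952 fat pad over tendon, and 4454 and 537 tendon over muscle. Values of members and list genes from total counts or TPM are to be set beside these medians. Of the 15 member differences called, 0 changed sign in any alternative run, and 9 kept their call in all. Those 9 include both Egr3 calls, which had 12 alternatives where the others had 15. Egr3 lacked fat pad TPM, so limma on TPM could not be run for it.

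Levels of different genes were compared as counts per base of annotated exon, in each library's own sum over a family, which no library scaling can change. In the Jun family, Jund made up 67.2% and 68.3% of the fat pad sum and 64.1% and 68.4% of the tendon sum, against 37.5% and 36.6% of the muscle sum. Jun made up 11.8% and 17.0% of that sum in the fat pad, 29.4% and 23.1% in tendon, and 48.0% and 52.8% in muscle, with no overlap between tissues. Junb took 21.1% and 14.8% in the fat pad, 6.42% and 8.42% in tendon, and 14.5% and 10.6% in muscle. Muscle was thus the only one of the 3 tissues sampled in which Jun exceeded Jund per base. By the authors' TPM, Jund led Jun in muscle library 1 with 47.2% against 44.8%, so the order of those genes in muscle depends on the measure.

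In the Fos family, Fos itself made up 94.0% and 92.3% of the counts per base in the fat pad, 63.0% and 82.5% in tendon, and 85.9% and 83.1% in muscle. The remainder differed by tissue. Fosl2 made up 5.01% and 7.46% in the fat pad, 33.6% and 11.7% in tendon, and 4.24% and 10.1% in muscle, while Fosb made up 0.956% and 0.238%, 3.42% and 5.77%, and 9.87% and 6.79% in the same order. In the Egr family Egr1 made up 95.7% and 93.0% in the fat pad, 80.1% and 83.9% in tendon, and 93.9% and 88.3% in muscle. Egr3 made up 8.35% and 7.19% of that sum in tendon, against 1.84% and 3.10% in muscle. By TPM its shares were 2.87% and 12.9% in tendon and 2.45% and 4.16% in muscle, so those tissues overlapped.

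**Figure D3:**
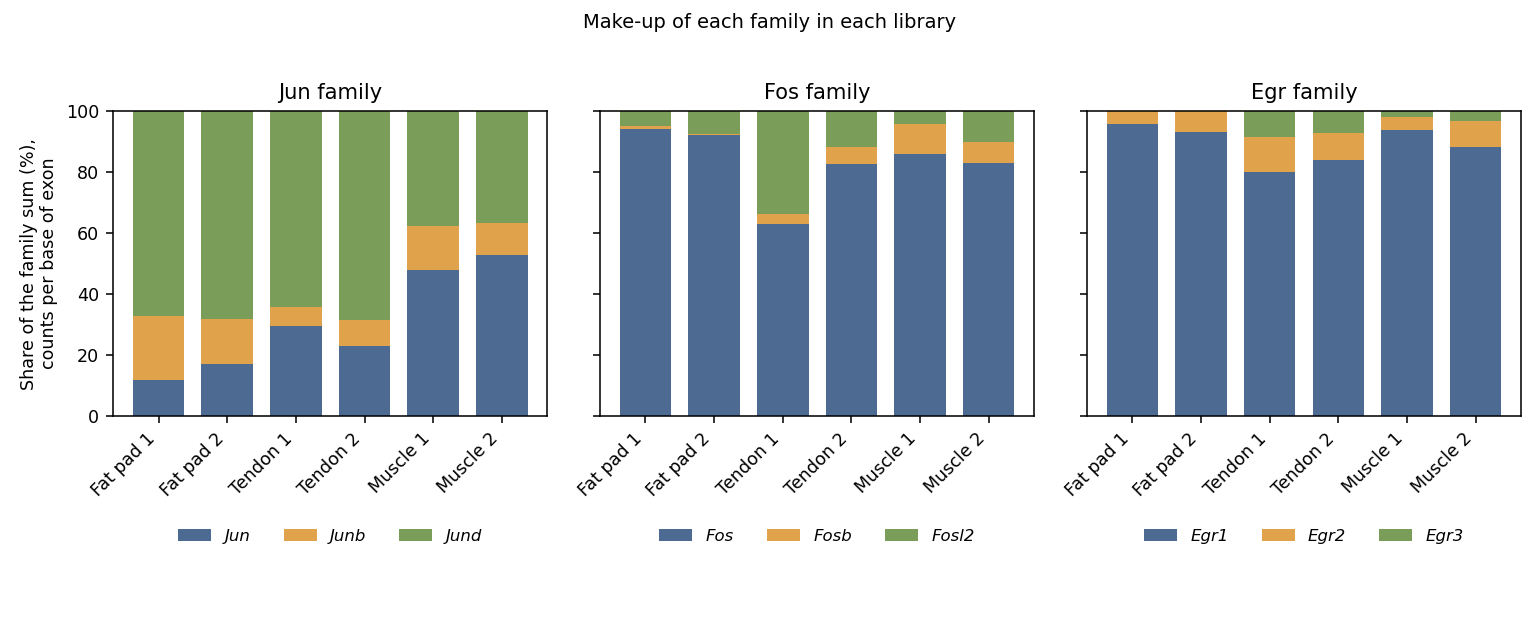
Share of each gene in the summed counts per exonic base of its family (bars from 0 to 100%), in each library, for the Jun, Fos and Egr families. Jund fills most of the Jun family bar in fat pad and tendon, Jun is the larger part in muscle, Fosl2 is widest in tendon library 1 and Egr3 in the 2 tendon libraries.

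Over all 10 genes, Jund had the highest level per base in both fat pad and both tendon libraries. On a per-length scale in which the listed genes of a library share one fixed total, its level was 207 and 236 in the fat pad and 409 and 454 in tendon. In muscle the first place was held by Fos (108) in library 1 and by Jun (107) in library 2. By the authors' TPM, which are also per length, muscle library 1 was led by Jund (269 TPM) and Jun (255 TPM), with Fos (79.2 TPM) after them, and muscle library 2 by Jun (354 TPM). By counts per base the lowest member was Egr3 in each library except tendon library 1, where it was Fosb. In muscle library 2 the lowest by TPM was Egr2 (1.04 TPM).

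Within a tissue the 2 libraries share their labels apart from a number and codes, so their differences were described with no test. A gene was counted as apart where its libraries differed by at least 2-fold after scaling. In the fat pad 2 members were apart, Fosb and Egr2, where 15.8% of all genes were (counting those that reached 20 counts in either library). In tendon 2 members were apart, Fos and Fosb, where 14.3% of all genes were, and in muscle 1 member, Fosb, where 5.47% were. Fosb was the only member apart in each tissue. Its ratio of library 2 over library 1 was 0.253 in the fat pad (95% exact interval 0.151 to 0.41), 3.19 in tendon (2.79 to 3.64) and 0.455 in muscle (0.416 to 0.498). Fos had a ratio of 2.47 in tendon (2.35 to 2.60), and Egr2 had 2.23 in the fat pad (1.91 to 2.62). These intervals cover counting error only. Tendon library 2, the higher one for Fos and Fosb, also held the larger muscle marker sum, though Myh2, Myh7 and Tnnt1 were higher in library 1. Other sums differed as well. In tendon libraries 1 and 2 the adipocyte markers summed to 6190 and 1387 CPM, and the erythroid markers to 384 and 118 CPM. The smooth muscle and pericyte markers summed to 2286 and 1297 CPM there. Fat pad library 1, the higher one for Fosb, held the larger marrow marker sum. The part of these sums in the differences was not tested.

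The deposited TPM columns do not follow the counts in every tissue. Across genes, as a description, the library ratios in counts and in TPM had a Spearman's rho of 0.999 in the fat pad (13293 genes), -0.306 in tendon (13057 genes) and -0.363 in muscle (11798 genes). Ratios of the members had the same sign in both measures for 8 of 9 genes in the fat pad, 8 of 10 in tendon and 5 of 10 in muscle. Atf3 in muscle had 617 and 1283 counts but 25.4 and 16.4 TPM. Fosl2 in tendon had 4626 and 2844 counts but 25.2 and 42.3 TPM. The order of the libraries within tendon and muscle thus depends on the measure for these genes, while Fos and Fosb kept theirs in both tissues.

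**Figure D4:**
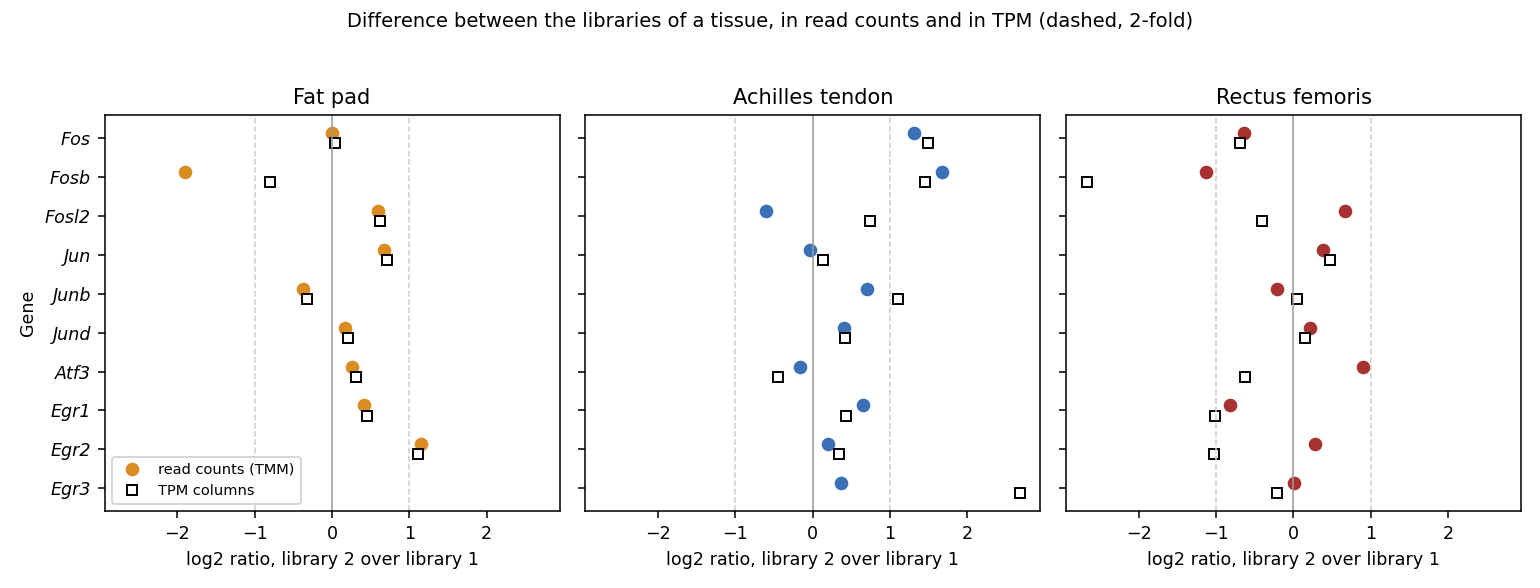
Log2 ratio of library 2 over library 1 for each gene (rows) in each tissue (panels), from TMM-scaled counts (circles) and from the TPM columns with a pseudocount of 0.1 (squares); dashed lines mark 2-fold. The measures lie close together in the fat pad except for Fosb, and fall on opposite sides of 0 for Fosl2 and Jun in tendon and for Fosl2, Junb, Atf3, Egr2 and Egr3 in muscle.

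Lists of related genes are given by their counts of calls and medians. They are to be set beside the values over all tested genes in edgeR: 29.8% higher and 29.6% lower with a median log2 fold change of 0.14 fat pad over muscle, 27.2%, 31.4% and -0.01 fat pad over tendon, and 13.3%, 12.7% and 0.10 tendon over muscle. Genes of the proteins known to act on these promoters were taken as the first list. Of 18 upstream kinases and promoter-bound activators, 10 were lower and 1 higher fat pad over muscle, with a median log2 fold change of -1.04. Fat pad over tendon, 11 were lower and 2 higher (median -1.11), and tendon over muscle 4 were lower and 4 higher (median -0.45). Srf, the serum response factor that binds CArG boxes, had 0.885 and 1.37 CPM in the fat pad, 49.5 and 69.1 CPM in tendon, and 107 and 99.9 CPM in muscle. Its log2 fold change was -6.51 ± 0.32 fat pad over muscle (edgeR adjusted p = 3.95e-05) and -5.71 ± 0.31 fat pad over tendon (adjusted p = 5.57e-05), in both comparisons the lowest of the list. Crem, a CREB family member, was highest in the fat pad, with 30.8 and 50.0 CPM there, 14.6 and 13.8 CPM in tendon, and 16.5 and 16.9 CPM in muscle. It rose by 1.27 ± 0.26 fat pad over muscle (edgeR adjusted p = 0.00502) and by 1.51 ± 0.26 fat pad over tendon (adjusted p = 0.00244), the call against tendon being lost in limma on log2(TPM + 1) (0.32, adjusted p = 0.364).

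Of 12 tested AP-1 and small Maf partners, 6 were lower and 2 higher fat pad over muscle (median log2 fold change -0.87), 8 lower and 2 higher fat pad over tendon (median -1.35), and 5 higher and 1 lower tendon over muscle (median 0.58). Maf, a basic leucine zipper factor, had 23.8 and 28.9 CPM in the fat pad, 56.7 and 101 CPM in tendon, and 267 and 289 CPM in muscle, and fell by 3.40 ± 0.32 on the log2 scale fat pad over muscle (edgeR adjusted p = 0.00017). Maff, a small Maf without an activation domain, had 0.575 and 0.427 CPM in the fat pad, 14.1 and 18.9 CPM in tendon, and 2.79 and 2.97 CPM in muscle, and fell by 5.04 ± 0.36 fat pad over tendon (edgeR adjusted p = 9.06e-05). Both Nab corepressors, which bind Egr proteins, were tested. Nab1 was higher fat pad over muscle (log2 fold change 1.00 ± 0.21, edgeR adjusted p = 0.00619), a call lost without muscle library 1 (adjusted p = 0.0527) and in limma on log2(TPM + 1) (adjusted p = 0.156), and Nab2 was lower fat pad over tendon (-1.24 ± 0.26, adjusted p = 0.00535).

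Of 35 other immediate early genes, 10 were higher and 9 lower fat pad over muscle (median log2 fold change 0.04), 6 higher and 14 lower fat pad over tendon (median -0.39), and 12 higher and 1 lower tendon over muscle (median 0.77). Nr4a1, an orphan nuclear receptor induced by the same stimuli, had 4.4 and 11.2 CPM in the fat pad, 79.6 and 146 CPM in tendon, and 271 and 333 CPM in muscle, and fell by 5.28 ± 0.56 on the log2 scale fat pad over muscle (edgeR adjusted p = 0.000265). Nr4a3, its relative, fell by 4.85 ± 0.60 fat pad over tendon (edgeR adjusted p = 0.000538). Ccn2, a matrix-associated growth factor, went the other way, with 779 and 498 CPM in the fat pad, 348 and 841 CPM in tendon, and 57.0 and 50.3 CPM in muscle, and rose by 3.57 ± 0.49 fat pad over muscle (edgeR adjusted p = 0.000798).

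Of 13 feedback phosphatases and RNA decay factors, which shut the response off, 3 were higher and 4 lower fat pad over muscle (median -0.56), 1 higher and 3 lower fat pad over tendon (median -0.45), and 3 higher tendon over muscle (median 0.41). Dusp14, a phosphatase of the mitogen-activated kinases, had 45.3 and 41.4 CPM in the fat pad, 10.4 and 15.7 CPM in tendon, and 5.07 and 4.73 CPM in muscle, and rose by 3.14 ± 0.26 on the log2 scale fat pad over muscle (edgeR adjusted p = 0.000108). Of 18 tested genes known as AP-1 or Egr targets, 6 were higher and 4 lower fat pad over muscle (median 0.27), 6 higher and 6 lower fat pad over tendon (median -0.10), and 5 higher and 1 lower tendon over muscle (median 0.52). Timp1, a metalloproteinase inhibitor, had 69.8 and 96.5 CPM in the fat pad, 8.24 and 22.0 CPM in tendon, and 1.69 and 0.661 CPM in muscle. Plau, the urokinase gene, had 0.553 and 1.03 CPM in the fat pad, 30.5 and 29.2 CPM in tendon, and 40.2 and 45.6 CPM in muscle. Timp1 rose by 6.15 ± 0.67 and Plau fell by 5.75 ± 0.35 on the log2 scale fat pad over muscle (edgeR adjusted p = 0.000293 and 5.06e-05).

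Among 11043 genes that averaged 5 CPM or more, those most like a member were found by the root mean square difference of log2 CPM over the 6 libraries after centring each gene. Nearest to Fos were Ifngr2 (0.166), Hspb8 (0.183), Atp5e (0.191), Map2k2 (0.195) and Fbxl22 (0.216). Ifngr2, an interferon gamma receptor subunit, had 41.4 and 32.6 CPM in the fat pad, 35.5 and 70.5 CPM in tendon, and 140 and 106 CPM in muscle. Nearest to Jun were Eid2b (0.0784), Ssh2 (0.0939), Zfp729a (0.0965), Zfp14 (0.102) and Pspc1 (0.114), and nearest to Egr1 were Nenf (0.128), Zfp622 (0.175), Dnajb11 (0.186), Pfdn5 (0.193) and Stoml1 (0.195).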

How the data were processed

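RNA-seq of 6 mouse libraries was used, 2 from each tissue. The read counts are whole numbers per Ensembl gene, not normalized, as deposited by the authors in 1 table per tissue. The TPM values, a per-length abundance in which each library has the same sum, were computed by the authors and deposited in a further table per tissue that lists protein-coding genes. Bowtie2, RSEM 1.3.1, DESeq2 1.4.5 and the build GRCm39 are named per the submitters' processing notes. What each tool did, the strand setting and the annotation release: not given in the sources used here.

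The tissue comparisons used edgeR 4.0.16 (R 4.3.3) with filterByExpr, TMM scaling, 1 fit of all 6 libraries with a term per tissue (15856 genes, biological coefficient of variation 0.336), glmQLFit and glmQLFTest, Benjamini-Hochberg adjustment over all genes and a threshold of 0.05. Standard errors were taken as the size of the log2 fold change over the root of the F statistic. Alternatives were other scalings, no filter, DESeq2 1.42.0, the 4 libraries of a comparison, a replicate block, leaving out each library, and limma 3.58.1 on log2(TPM + 1) or log2(TPM + 0.1). The fits were also run on simulated counts in which few genes changed and all shared a common dispersion. Most genes were called in the real fat pad comparisons, so that run cannot give the error rate in these data. Within a tissue, ratios carry exact conditional binomial 95% intervals. Exonic lengths and overlaps come from GENCODE M21 on GRCm38, so no gene coordinates on GRCm39 are given, and promoters come from RefSeq. Named list genes are the highest and the lowest called gene of a list in a comparison with at least 10 CPM in the higher tissue, or some of these. Members and lists were chosen with earlier results of these data known. All per-sample columns of counts and TPM were used.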

Additional observations from a re-analysis of the deposited data

How the results depend on the processing

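Over 441 alternative values of the members' log2 fold changes, 361 kept direction and side of the threshold, 30 passed it anew, 16 lost it and 34 changed sign. Of the 34, 0 touched a called difference, and the cause of these shifts was not tested. Counts over the gene lists stayed within 1.5 times in 495 of 630 cases, with 53 larger and 82 smaller. Tendon over muscle, all-gene calls in edgeR fell to 37 higher and 6 lower without muscle library 1 and 14 and 5 without muscle library 2, against 2110 and 2017 in all libraries. For list genes, 471 of 510 values kept their call, 36 lost it and 3 changed sign. Those 3 were all Mmp9 fat pad over tendon, at -1.65 in limma on log2(TPM + 1), with and without a filter, and -1.53 on log2(TPM + 0.1).

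In limma on TPM, with either pseudocount or no filter, 1 member was called higher and 5 lower fat pad over muscle, and 0 higher and 7 lower fat pad over tendon. On log2(TPM + 1), 21.8% of all genes were higher and 41.5% lower in that first comparison, and 11.6% and 57.3% in the other. Tendon over muscle, the number called higher was 5 with total counts (37.6% of all genes), 2 in DESeq2 (17.4%), 5 on log2(TPM + 1) (32.1%), 3 on log2(TPM + 0.1) (29.2%), 3 without a filter on TPM (29.1%) and 3 with 4 libraries in the fit (16.1%), against 1 (13.3%) in edgeR with TMM. With each library left out it ran between 0 and 2, as did the number called lower, where Fos and Fosb passed without tendon library 2. By TPM, 1 member was 2-fold apart in the fat pad (9.76% of all genes), 4 in tendon (9.43%) and 3 in muscle (6.71%).

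Sign changes of uncalled differences were as follows. Fat pad over muscle, Egr1 had -0.23 and Egr2 had -0.13 on log2(TPM + 1), with and without a filter, and -0.23 and -0.22 on log2(TPM + 0.1). Leaving out libraries gave -0.15 to 0.68 for Egr1 and -0.54 to 0.66 for Egr2. Fat pad over tendon, Jund had 0.0602 with DESeq2 size factors and in DESeq2, and Egr1 had -0.00855 with total counts, -0.38 on log2(TPM + 1), with and without a filter, and -0.38 on log2(TPM + 0.1). Leaving out libraries gave -1.12 to 0.13 for Fos, -0.18 to 0.16 for Jund and -0.0504 to 0.54 for Egr1. Tendon over muscle, Egr1 had -0.0412 with DESeq2 size factors and in DESeq2, and Jun had 0.71 with total counts, 0.0027 without a filter and 0.0458 with 4 libraries. Leaving out libraries gave -0.18 to 0.20 for Jun, -0.15 to 0.53 for Junb, -0.33 to 0.50 for Egr1 and -0.27 to 0.63 for Atf3.

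The replicate block changed no member call (2 higher and 6 lower fat pad over muscle, 1 higher and 5 lower fat pad over tendon, 1 higher tendon over muscle) and put Jun tendon over muscle at 0.0127. Library numbers are shared between tissues, and no label says whether same-numbered libraries pair. Over 15856 genes, deviations of same-numbered libraries correlated at -0.0267 for fat pad and muscle and 0.00217 for fat pad and tendon. For tendon and muscle the value was -0.167. The libraries of a tissue also differ in marker sums, so these correlations cannot decide whether the numbers pair tissues. With 2 libraries a tissue, a lone library left after leaving 1 out is assumed to vary like the others.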

Other observations

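Heat shock and stress genes were taken as a list of 10. Fat pad over muscle, 3 were higher and 3 lower (median log2 fold change -0.68), where 29.8% of all genes were higher and 29.6% lower (median 0.14). Fat pad over tendon 2 were higher and 4 lower (median -0.10), where 27.2% and 31.4% of all genes were (median -0.01). Tendon over muscle 2 were higher (median 0.57), where 13.3% of all genes were (median 0.10). Ddit4, a stress-induced inhibitor of the mTOR kinase, had 4.93 and 3.35 CPM in the fat pad, 46.6 and 65.2 CPM in tendon, and 38.9 and 27.6 CPM in muscle. It differed by a log2 fold change of -3.75 ± 0.32 fat pad over tendon (edgeR adjusted p = 0.000142). Dnajb1, a cochaperone of Hsp70, had 52.1 and 86.2 CPM in the fat pad, 22.9 and 22.3 CPM in tendon, and 13.1 and 17.0 CPM in muscle, and rose by 1.61 ± 0.28 on the log2 scale fat pad over tendon (edgeR adjusted p = 0.0023).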
